A study of Homo sapiens with 4 samples.

Results

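The genes described are 7 metallothioneins (MT1E, MT1F, MT1G, MT1H, MT1M, MT1X and MT2A), the zinc-sensing transcription factor MTF1, the zinc exporter SLC30A1 and the manganese exporter SLC30A10. They were read through every probe set whose platform annotation named a single one of them, which gave 18 probe sets for 10 genes, out of 54613 probe sets and 19775 named genes. The genes were chosen by their log2 values on these same arrays, with differences between knockdown and control already known and no threshold stated, so their values are given as a description, with no test. Of the 18 probe sets, 9 end in _x_at, all of them metallothioneins, 2 end in _s_at, both of MTF1, and 7 end in _at. The suffix _x_at marks a set with probes that can also bind other transcripts, and _s_at a set whose probes are shared by several transcripts. Metallothionein genes are close copies of each other, so the _x_at sets may read a mixture of the family. The set 204326_x_at is annotated to MT1X but carries an accession that the RefSeq table gives to MT1L, a neighbouring transcribed pseudogene.

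Messenger RNA was measured in HepG2, an established human hepatoma cell line, on 4 Affymetrix HG-U133 Plus 2.0 arrays. Knockdown was by either of 2 siRNAs to LSD1, here siRNA-1 and siRNA-2, with 1 array for each, and control cells had an siRNA to GL3, a luciferase that the cells do not carry (2 arrays). LSD1, the product of KDM1A, is a histone demethylase, and the study concerned its role in hepatic cancer metabolism. All cells grew in medium with 25 mM glucose and 10% serum, were transfected at about 50% confluence and were harvested after 4 days. The 2 knockdown arrays differ in the siRNA used. The labels do not describe the 2 control arrays as separate cultures, so the spread between them may be technical. In such bulk samples, fewer cells of a kind and less RNA per cell cannot be told apart. An exact permutation test of 2 arrays against 2 cannot give a two-sided p below 0.33.

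Metallothioneins are small cysteine-rich proteins that bind zinc, copper and cadmium, and liver cells make them in large amounts when metal, glucocorticoids or stress call for them. MTF1 is the transcription factor that senses zinc: when zinc rises it binds metal response elements in the promoters of metallothionein genes and of SLC30A1 and raises their transcription. SLC30A1 moves zinc out of the cell across the plasma membrane, whereas SLC30A10 exports manganese, and its loss in humans leads to manganese overload of liver and brain. SLC39 family proteins work the other way and bring metal into the cytosol.

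Promoter windows were shown for the members whose sequence bears on this regulation, to display how densely the metallothionein promoters carry the core of the metal response element. The windows come from RefSeq (GRCh38.p14) and run from 250 bases before to 50 bases after the annotated start, 5′ to 3′ on the gene's strand. Capitals mark matches to the 7-base core, searched as TGCACNC and TGCGCNC on both strands. Windows were found for 6 of the 10 genes (MT2A, MT1H, MT1X, SLC30A1, SLC30A10 and MTF1), with 2 starts for SLC30A10, and MT1E, MT1F, MT1G and MT1M are named only.
MT2A (GRCh38.p14, chr16:56608334-56608633, plus strand): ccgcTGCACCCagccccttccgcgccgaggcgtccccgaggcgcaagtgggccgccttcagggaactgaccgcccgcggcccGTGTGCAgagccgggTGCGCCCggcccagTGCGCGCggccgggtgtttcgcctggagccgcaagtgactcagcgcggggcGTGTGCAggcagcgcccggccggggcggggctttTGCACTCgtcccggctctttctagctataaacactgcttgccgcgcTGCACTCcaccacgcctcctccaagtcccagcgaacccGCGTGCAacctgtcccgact
MT1H (GRCh38.p14, chr16:56669564-56669863, plus strand): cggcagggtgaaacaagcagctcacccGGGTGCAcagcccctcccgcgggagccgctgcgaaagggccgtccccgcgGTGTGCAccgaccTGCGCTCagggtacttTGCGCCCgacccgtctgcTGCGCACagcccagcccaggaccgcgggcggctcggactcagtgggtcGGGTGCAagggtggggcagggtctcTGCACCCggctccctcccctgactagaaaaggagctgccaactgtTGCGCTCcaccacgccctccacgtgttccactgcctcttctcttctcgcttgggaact
MT1X (GRCh38.p14, chr16:56682220-56682519, plus strand): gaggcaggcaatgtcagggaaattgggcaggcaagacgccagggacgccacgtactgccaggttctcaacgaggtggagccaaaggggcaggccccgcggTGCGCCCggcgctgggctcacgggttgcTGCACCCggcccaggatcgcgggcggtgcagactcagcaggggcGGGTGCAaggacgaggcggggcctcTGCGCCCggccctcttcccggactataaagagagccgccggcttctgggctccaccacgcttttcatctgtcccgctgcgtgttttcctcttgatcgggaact
SLC30A1 (GRCh38.p14, chr1:211579112-211579411, minus strand): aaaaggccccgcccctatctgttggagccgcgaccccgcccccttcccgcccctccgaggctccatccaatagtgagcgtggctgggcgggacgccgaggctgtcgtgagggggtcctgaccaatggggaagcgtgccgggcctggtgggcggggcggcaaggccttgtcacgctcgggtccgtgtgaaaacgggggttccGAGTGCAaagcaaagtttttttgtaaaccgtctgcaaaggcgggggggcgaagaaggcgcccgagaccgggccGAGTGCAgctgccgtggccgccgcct
SLC30A10 (GRCh38.p14, chr1:219928508-219928807, minus strand): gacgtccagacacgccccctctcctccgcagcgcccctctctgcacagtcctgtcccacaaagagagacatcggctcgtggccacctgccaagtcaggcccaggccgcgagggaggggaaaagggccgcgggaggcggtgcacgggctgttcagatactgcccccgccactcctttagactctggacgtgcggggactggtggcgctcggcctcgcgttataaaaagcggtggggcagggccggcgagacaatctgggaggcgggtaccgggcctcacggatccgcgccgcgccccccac

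The MT2A window held 8 matches, the MT1H window 8 and the MT1X window 4, with no overlap between matches. Among 35116 such windows of human genes, 0.601% held at least 4 matches and 0.0199% held at least 8. The SLC30A1 window held 2 matches, both to TGCACNC on the opposite strand, and 8.6% of all windows held at least 2. No match was found in the windows of MTF1 or of either SLC30A10 start, as in most windows, since 29.6% of all windows held at least 1. A match is a description of the letters and not a measured binding site.

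**Figure D1:**
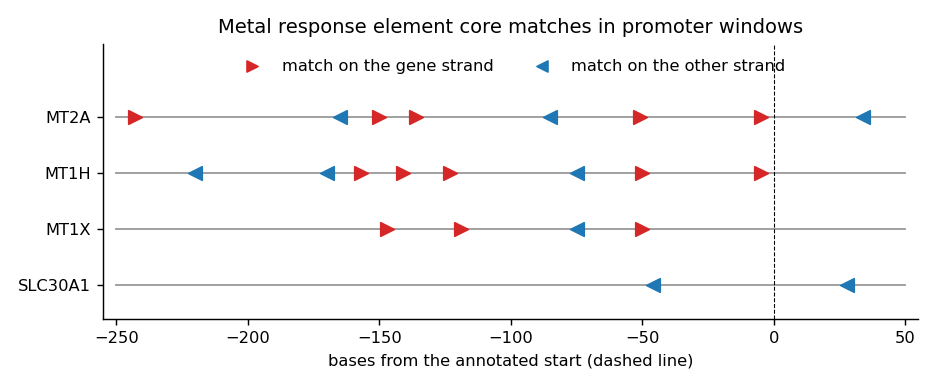
Positions of metal response element core matches in 4 promoter windows, in bases from the annotated start (dashed line). Triangles pointing right are matches on the strand of the gene and triangles pointing left matches on the other strand; MT2A and MT1H hold 8 matches each, MT1X 4 and SLC30A1 2.

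The deposited log2 values are centred: each probe set has a median of 0 over the 4 arrays. Differences between arrays are kept, and absolute levels are not. KDM1A, the targeted gene, read -1.55 under siRNA-1 and -1.17 under siRNA-2, against 1.23 and 1.17 on the control arrays. Over all probe sets the SD was 0.197 under siRNA-1 and 0.384 under siRNA-2, against 0.164 and 0.154 on the controls, so the siRNA-2 array lay farther from the others. Hybridization spike-ins, added in fixed amounts after labelling, read 0.61 and 0.65 on the knockdown arrays, against -0.69 and -0.61 on the controls (18 probe sets). The value at the 5′ end minus that at the 3′ end, a sign of RNA integrity, was taken relative to its mean on the controls. It therefore shows a shift between arrays and not the integrity of the controls. For ACTB it was -0.55 and -0.66 on the knockdown arrays, against 0.06 and -0.06 on the controls. For GAPDH it was -0.13 and -0.22, against 0.05 and -0.05. Of 10 hepatocyte marker genes, 9 were measured, and the numeric step of their values placed each of these 9 at a log2 level of 8 or above. They differed from the control mean by 0.09 to 0.50 under siRNA-1 and 0.06 to 1.56 under siRNA-2, the highest being ALB (albumin). The 3 fibroblast markers ranged from -0.27 to 1.10 under siRNA-1 and -0.27 to 2.65 under siRNA-2, where COL1A1 was highest, and the 3 leukocyte markers from -0.13 to 0.90 and from -0.48 to 1.71, where CD14 was highest under siRNA-2. The 3 endothelial markers ranged from 0.08 to 0.56 under siRNA-1 and -0.03 to 0.41 under siRNA-2.

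The siRNAs gave different pictures for the metallothioneins, with the larger differences under siRNA-2, and the same picture for SLC30A10. Under siRNA-2, 11 of 11 metallothionein probe sets lay above both controls, 0.33 to 5.31 above their mean on the log2 scale (37.7% of all probe sets lay above both). Under siRNA-1, 9 of 11 lay below both controls (39.9% of all probe sets did), the lowest at -0.60 from their mean. SLC30A10 was more than 5-fold higher with each siRNA. MTF1 itself differed from the control mean by -0.14 to 0.19 over its 3 probe sets and both siRNAs, and the probe sets of SLC30A1 went different ways.

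MT1M, an inducible metallothionein, had the widest difference. Its probe set 217546_at read -0.60 under siRNA-1 and 5.31 under siRNA-2, against -0.05 and 0.05 on the control arrays. The siRNA-2 array stood far above the other arrays and the siRNA-1 array below them, so the knockdown values straddled the controls. Relative to the control mean the siRNA-2 value was 39.7-fold higher, the highest rise of all 54613 probe sets on that array, and the siRNA-1 value 1.52-fold lower. The mean of the knockdown arrays was 2.35 ± 1.97 above that of the controls (limma SE, n = 2 arrays per group), an error nearly as wide as the difference. This set has the suffix _at and is not marked as shared with other transcripts.

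MT1G, a metal-induced isoform, was read by 2 probe sets that differed in size. The _at set 210472_at read 0.02 under siRNA-1 and 2.10 under siRNA-2, against -0.09 and -0.02 on the controls. Both knockdown arrays lay above both controls, but siRNA-1 only by 0.07 over their mean. The siRNA-2 value was 4.45-fold higher than the control mean and ranked 127 among all probe sets. The set 204745_x_at read -0.21 under siRNA-1 and 0.85 under siRNA-2, against -0.05 and 0.05 on the controls. In that set the siRNA-1 array lay below both controls, and the siRNA-2 rise was 1.80-fold.

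MT1F, the next in order, read -0.20 under siRNA-1 and 1.17 under siRNA-2 on 217165_x_at, against -0.02 and 0.02 on the controls. Its other set, 213629_x_at, read 0.00 under siRNA-1 and 1.40 under siRNA-2, against -0.03 and 0.00 on the controls. The rises under siRNA-2 were 2.25-fold and 2.67-fold, and on 213629_x_at the siRNA-1 array lay within the range of the controls. MT1H read -0.21 under siRNA-1 and 1.04 under siRNA-2, against -0.03 and 0.03 on the controls (206461_x_at), a 2.05-fold rise under siRNA-2.

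MT1X, a widely expressed isoform, read -0.15 under siRNA-1 and 1.01 under siRNA-2 on 204326_x_at, against -0.10 and 0.10 on the controls. On 208581_x_at it read -0.29 under siRNA-1 and 0.61 under siRNA-2, against -0.01 and 0.01 on the controls. Both sets were lowest under siRNA-1 and highest under siRNA-2. MT1E repeated that order, with -0.33 on each of its sets under siRNA-1 and 0.59 (212859_x_at) and 0.86 (216336_x_at) under siRNA-2, against -0.01 and 0.01 on the controls for each set.

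MT2A, in many tissues the most abundant human metallothionein, had the smallest difference under siRNA-2 among the metallothioneins. It read -0.41 under siRNA-1 and 0.33 under siRNA-2, against -0.02 and 0.02 on the controls (212185_x_at). The siRNA-1 array was 1.33-fold lower than the control mean and the siRNA-2 array 1.26-fold higher. These cancelled in the mean difference of -0.04 ± 0.27 (limma SE, n = 2 arrays per group).

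Ordered by the difference under siRNA-2, the sets ran from MT1M (5.31) through 210472_at of MT1G (2.15), MT1F (1.41 and 1.17), MT1H (1.04), MT1X (1.01 and 0.61), MT1E (0.86 and 0.59) and 204745_x_at of MT1G (0.85) to MT2A (0.33). The control arrays of these sets differed by at most 0.20 (204326_x_at), with a median of 0.04. Neighbours in this order from MT1H down to MT1E and the lower MT1G set, such as MT1H and the higher MT1X set, were mostly closer than that spread. The 2 sets outside the _x_at class had the 2 largest rises, at 2.15 and 5.31, while the 9 _x_at sets ranged from 0.33 to 1.41. The order therefore describes probe sets more than genes. By the numeric step of the values, a rough guide to brightness that misplaces about 1 row in 8 upward, the 9 _x_at sets lay at a log2 level of 8 or above. Both _at sets lay from 4 to 8, but on the siRNA-1 and control arrays only. Their siRNA-2 values were too large for the step to be read. For these 2 sets misplacement is therefore likelier, and the class does not cover the siRNA-2 array.

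**Figure D2:**
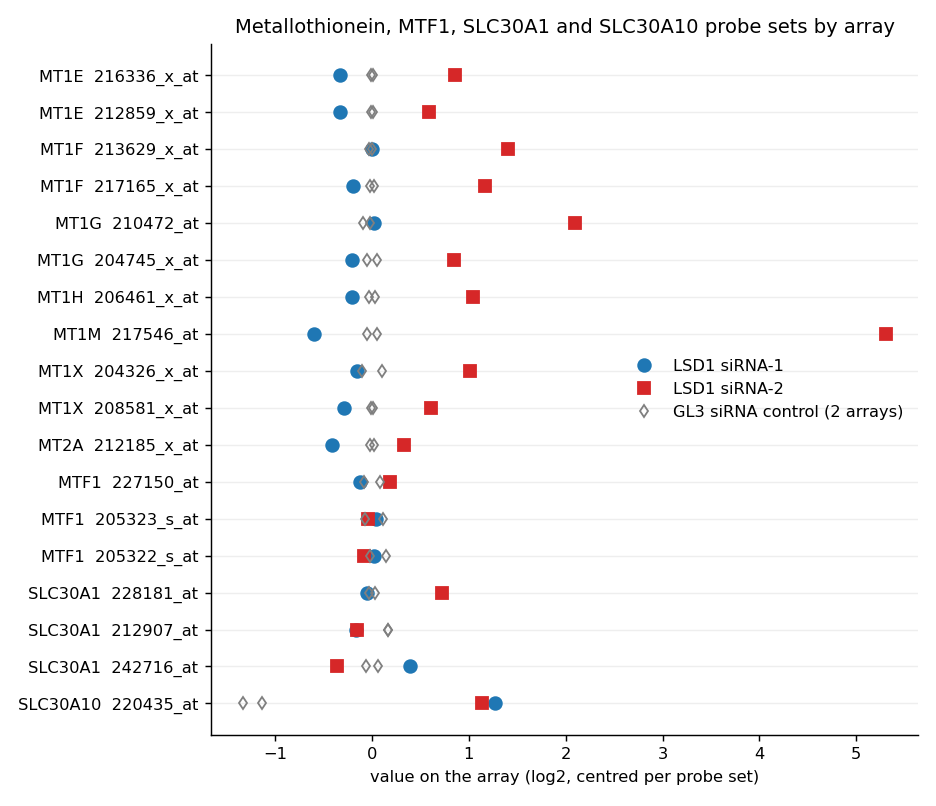
Log2 values, centred per probe set, of the 18 probe sets on each array: LSD1 siRNA-1 (circles), LSD1 siRNA-2 (squares) and the 2 GL3 controls (open diamonds). The siRNA-2 square lies right of both controls in all 11 metallothionein sets, MT1M reaching 5.31, while SLC30A10 is the set where both siRNAs lie far to the right of the controls.

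Against all probe sets, the counts of metallothionein sets read as follows. Under siRNA-2, 6 of 11 metallothionein sets were at least 2-fold above the control mean and 0 at least 2-fold below; among all probe sets 3.02% and 2% were. Under siRNA-1, 0 of 11 passed 2-fold in either direction, against 0.602% higher and 0.352% lower among all probe sets. Between the siRNAs, 8 of 11 sets stood at least 2-fold above the siRNA-1 array on the siRNA-2 array (1.78% of all probe sets). For the mean of both knockdown arrays, 3 of the 18 sets (MT1M, 210472_at of MT1G and SLC30A10) were at least 2-fold above the controls, against 1.12% of all probe sets, and 0 at least 2-fold below, against 0.705%. In 9 of 11 sets siRNA-1 lay below both controls while siRNA-2 lay above both, an arrangement that 9.61% of all probe sets had. These sets share probes and were chosen with the contrast known, so the counts are not independent of one another or of the choice.

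The median over the 11 metallothionein sets was -0.21 under siRNA-1 and 1.01 under siRNA-2, and over all probe sets 0.00 and -0.03. With both knockdown arrays averaged the median was 0.41 (-0.01 over all probe sets), and leaving out siRNA-2 made it -0.21. Both knockdown arrays lay above both controls in 1 metallothionein set (210472_at) and below both in 0, against 21.6% and 25.3% of all probe sets. The metallothionein difference is thus carried by the siRNA-2 array, which also had the widest SD over all probe sets (0.384). The ALB, COL1A1 and CD14 values given above were higher on it too, but they are the top of their lists. Its lowest fibroblast and leukocyte markers stood at -0.27 and -0.48, and under siRNA-1 these lists reached 1.10 and 0.90. The part of the SD, the markers, the spike-ins and the ACTB and GAPDH values in the metallothionein difference was not tested.

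SLC30A10, the manganese exporter, was read by 1 probe set (220435_at). It read 1.27 under siRNA-1 and 1.14 under siRNA-2, against -1.14 and -1.33 on the control arrays. Both knockdown arrays lay above both controls, with a gap many times wider than the 0.19 between the controls or the 0.13 between the siRNAs (siRNA-2 minus siRNA-1, -0.13). The rise was 5.69-fold under siRNA-1, the 13th highest of all probe sets on that array, and 5.19-fold under siRNA-2, the 80th. The mean difference was 2.44 ± 0.13 (limma SE, n = 2 arrays per group), or 5.43-fold, and ranked 17 of 54613. This set moved along the same split of arrays as the spike-ins, the ACTB values and, less widely, the GAPDH values. Their part in it was not tested.

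SLC30A1, the zinc exporter that MTF1 controls, gave a different answer on each of its 3 probe sets, all ending in _at. On 228181_at it read -0.05 under siRNA-1 and 0.72 under siRNA-2, against 0.03 and -0.03 on the controls, the order of the metallothioneins. On 212907_at it read -0.17 under siRNA-1 and -0.16 under siRNA-2, against 0.16 and 0.17 on the controls, lower with both siRNAs by 1.26-fold and 1.25-fold. On 242716_at, whose numeric step places it below 4, it read 0.39 under siRNA-1 and -0.36 under siRNA-2, against -0.06 and 0.06 on the controls. The sets thus disagree, and no single direction can be given for the gene.

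MTF1 was read by 3 probe sets and showed no array standing apart. The set 227150_at read -0.12 under siRNA-1 and 0.19 under siRNA-2, against -0.08 and 0.08 on the controls. The sets 205322_s_at and 205323_s_at read 0.02 and 0.04 under siRNA-1 and -0.08 and -0.04 under siRNA-2, against -0.02 and -0.07 on control 1 and 0.14 and 0.11 on control 2. The controls of these 3 sets differed by 0.16 to 0.18, as much as most differences from knockdown, and the mean differences were 0.03, -0.09 and -0.02 with limma SE of 0.12 to 0.16 (n = 2 arrays per group).

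**Figure D3:**
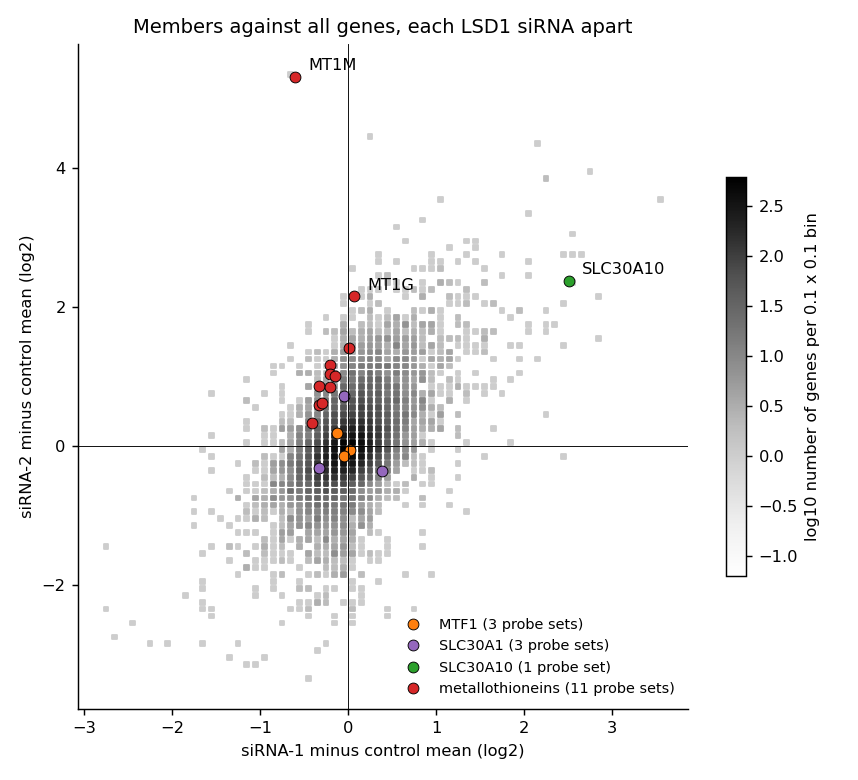
Difference from the control mean under siRNA-1 (horizontal, log2) and siRNA-2 (vertical, log2) for the member probe sets, over all 19775 genes counted in grey bins. The 11 metallothionein sets lie between -0.60 and 0.07 across and between 0.33 (MT2A) and 5.31 (MT1M) up; SLC30A10 lies at 2.51 and 2.38.

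The 7 metallothionein members lie together on chromosome 16, in a cluster that the RefSeq table gives as 16 metallothionein genes and pseudogenes from MT4 to MT1X. Probe sets that name a single gene were present for 9 of these. MT4 read 0.01 under siRNA-1 and -0.40 under siRNA-2, against 0.07 and -0.01 on the controls, and MT3, the brain metallothionein, 0.33 and -0.13, against 0.05 and -0.05. So the siRNA-2 array lay below the controls for MT4 and MT3, and above them for the measured genes from MT2A to MT1X. Those measured genes are the 7 members themselves, chosen with the contrast known, and most of their sets end in _x_at. This order along the cluster is therefore not independent of the choice. The 3 nearest measured genes on each side, chosen after the values were seen, differed from the control mean by -0.59 to 0.25 under siRNA-1 and -0.73 to 0.35 under siRNA-2 when each was read by its 1 chosen probe set. Their other probe sets went further: the 5 sets of OGFOD1 ran from -0.92 to 0.67 under siRNA-2, the upper end above MT2A (0.33), and the 3 sets of NUDT21, which encodes a cleavage factor of messenger RNA 3′ ends, from -0.59 to 0.26 under siRNA-1. BBS2, a BBSome subunit with 1 probe set, stood at 0.25 under siRNA-1 and 0.35 under siRNA-2. NUP93, the nearest gene beyond MT1X and a nuclear pore component, read 0.00 under siRNA-1 and 0.19 under siRNA-2, against -0.01 and 0.00 on the controls.

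**Figure D4:**
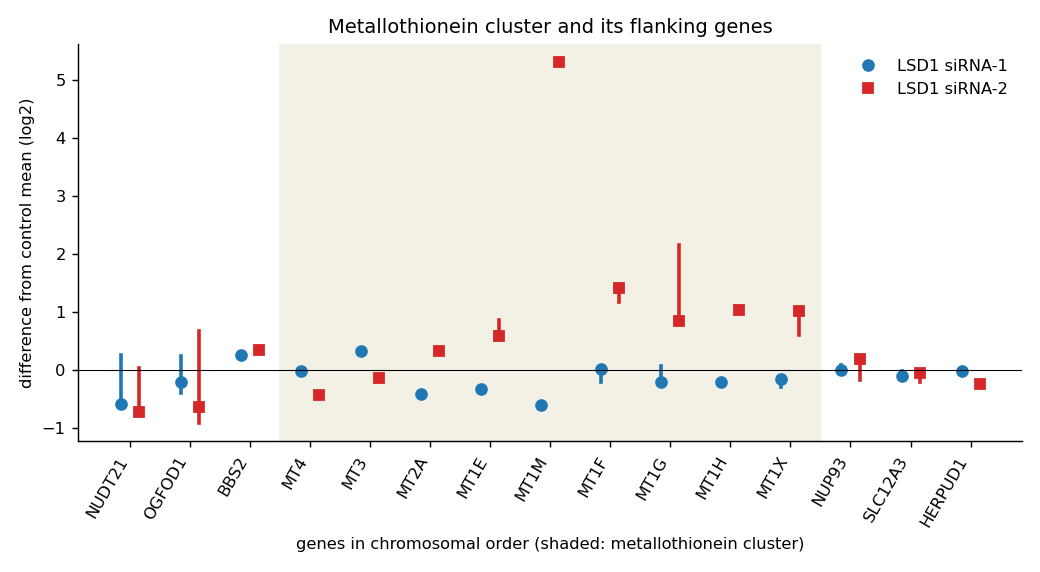
Difference from the control mean (log2) under siRNA-1 (circles) and siRNA-2 (squares) for genes in chromosomal order, the metallothionein cluster shaded. Points are the probe set chosen for each gene and vertical lines span all probe sets of that gene. From MT2A to MT1X the genes shown are the members, and siRNA-2 lies above 0 for them. The points of the flanking genes lie between -0.73 and 0.35 and the line of OGFOD1 spans -0.92 to 0.67.

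Other genes, taken from 7 lists of 72 genes of which 62 were measured, were tested with limma across all 19775 genes. The lists cover metal handling, heavy metal and protein stress, and glucocorticoid receptor targets, and the counts that follow pool them. With knockdown against control 0 of 62 passed at a limma adjusted p under 0.05, against 0.00506% higher and 0% lower among all genes. At an unadjusted p under 0.05 there were 9 higher and 3 lower, and 2877 among all genes. The silenced target KDM1A, at -2.56 from the control mean, was not called lower either, so 0 calls do not mean no change. Under siRNA-1 against control 0 passed as well (16 higher and 10 lower unadjusted), against 0% of all genes in either direction (5266 unadjusted). Under siRNA-2 against control 12 were higher and 7 lower, against 13.2% and 10.1% of all genes. In these single-siRNA tests the spread comes from the 2 controls and is taken to hold for the lone array too, though that spread may be technical.

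Among the 14 SLC39 importers, both knockdown arrays lay above both controls for 6 and below for 4, against 23.6% and 25.4% of all genes. SLC39A10, a plasma membrane zinc importer, had the widest difference of them under siRNA-2. Its transcript is known in mouse cells to go down when zinc and MTF1 activity go up. It read -0.18 under siRNA-1 and -2.71 under siRNA-2, against 0.18 and 0.26 on the controls, in its 1 probe set. The siRNA-2 array was 7.6-fold below the control mean (-2.93 ± 0.08, limma SE, adjusted p = 0.0155). The siRNA-2 array minus the siRNA-1 array was -2.53, a difference between single arrays. As with MT1M, the siRNA-2 array alone stood far from the other 3 arrays, here on the low side.

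SLC39A5, an importer of the liver and intestine, read 0.26 under siRNA-1 and 1.12 under siRNA-2, against -0.26 and -0.30 on the controls. It rose 2.64-fold under siRNA-2 (1.40 ± 0.07, limma adjusted p = 0.0155). Its second probe set lay on the same side, at 0.33 under siRNA-1 and 1.24 under siRNA-2. SLC39A14, which carries manganese, zinc and iron into liver cells, rose under siRNA-2 by 0.67 ± 0.07 (limma adjusted p = 0.0243). Its other sets read -0.12 and 0.29, and with the mean of its sets the adjusted p was 0.0602. SLC39A11 rose by 0.48 under siRNA-2.

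Of the 8 other SLC30 exporters, both knockdown arrays lay above both controls for 2 and below for 4, against 23.6% and 25.4% of all genes. SLC30A9, a mitochondrial zinc transporter, was higher by 0.33 under siRNA-1 and 0.70 under siRNA-2, though its second set stood at 0.01 and -0.09. SLC30A7, which loads zinc into the Golgi, stood at -0.23 from the control mean under siRNA-1 and -0.58 under siRNA-2, and its other sets were also lower. The list medians were -0.16 under siRNA-1 and -0.25 under siRNA-2 for the exporters, and 0.01 and 0.13 for the importers, against 0.00 and -0.02 over all genes. No other exporter of the family came near the 5-fold rise of SLC30A10 on its chosen probe set.

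**Figure D5:**
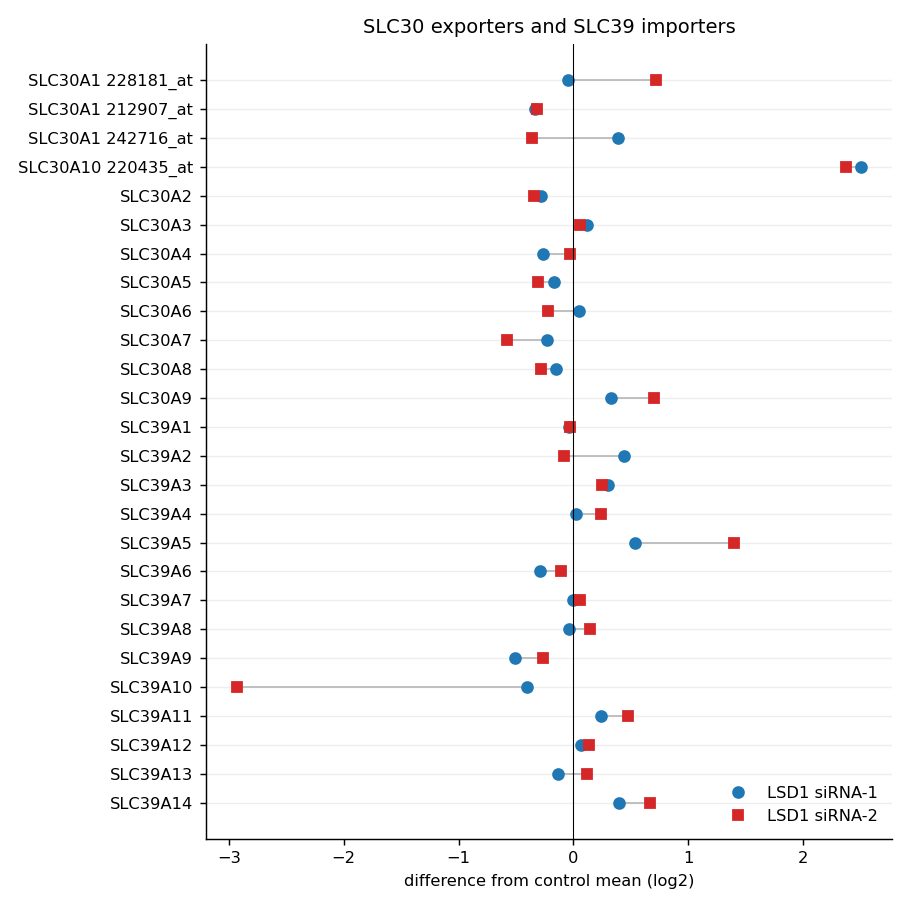
Difference from the control mean (log2) under siRNA-1 (circles) and siRNA-2 (squares) for SLC30 exporters and SLC39 importers, 1 probe set per gene except SLC30A1, which has 3. SLC30A10 lies at 2.51 and 2.38, while SLC39A10 lies at -0.40 under siRNA-1 and -2.93 under siRNA-2.

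Among 8 genes of manganese and divalent metal transport, both knockdown arrays lay above both controls for 3 and below for 3, against 23.6% and 25.4% of all genes. SLC40A1, the iron exporter ferroportin, read 0.06 under siRNA-1 and 1.54 under siRNA-2, against -0.10 and -0.06 on the controls. It was 3.08-fold higher under siRNA-2 (1.62 ± 0.07, limma adjusted p = 0.0155). The divalent metal transporter gene SLC11A2 rose by 0.53 under siRNA-2. Under siRNA-2, TFRC, the transferrin receptor, stood at -0.50 from the control mean, and ATP2C1, a Golgi calcium and manganese pump, at -0.41. Other sets of TFRC ran from -1.21 to -0.01 there, and those of ATP2C1 from -0.95 to -0.15.

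For the 11 copper genes, both knockdown arrays lay above both controls in 4 and below in 3, against 23.6% and 25.4% of all genes. COMMD1 read 0.71 above the control mean under siRNA-2, and the copper chaperone COX17 0.56. SCO2, a cytochrome oxidase assembly factor, fell by 1.26 on the log2 scale under siRNA-2 (-1.26 ± 0.07, limma adjusted p = 0.0155) and read -0.63 under siRNA-1, which did not pass. ATP7A, the copper pump, stood at -0.29 under siRNA-1 and -0.70 under siRNA-2, and on this chosen set passed neither test. Its second set lay on the same side, at -0.17 and -0.56. The outcome under siRNA-2 changed when the mean of its sets was used (-0.63). Of 10 measured genes of heavy metal and protein stress, HMOX1, the haem oxygenase, rose under siRNA-2 (1.02 ± 0.07, limma adjusted p = 0.0162) and read 0.86 under siRNA-1. TXNRD1 read -0.49 ± 0.07 under siRNA-2 (limma adjusted p = 0.0339), and -0.23 with an adjusted p of 0.096 over the mean of its sets. SRXN1 read 0.52 and 0.27 without passing, and the heat shock genes HSPA6, HSPH1, DNAJB1 and BAG3 did not pass either on their chosen probe sets. Other sets of HSPH1 stood at -1.12 and -0.16 from the control mean under siRNA-2.

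Of 8 measured glucocorticoid receptor targets, both knockdown arrays lay above both controls for 1 and below for 4, against 23.6% and 25.4% of all genes. SGK1, a glucocorticoid-induced kinase, read 0.06 under siRNA-1 and 1.69 under siRNA-2, against -0.06 and -0.13 on the controls (siRNA-2 minus control, 1.79 ± 0.07, limma adjusted p = 0.0155). FKBP5, which encodes a co-chaperone of the receptor, went the other way, with -0.01 and -1.25, against 0.12 and 0.01 (siRNA-2 minus control, -1.31 ± 0.09, limma adjusted p = 0.0162). TSC22D3 rose under siRNA-2 on 1 _s_at set (1.54 ± 0.07, limma adjusted p = 0.0155), while its other sets read -0.07 and 0.06. Of the metallothioneins outside the members, 3 were measured. MT1HL1, a copy on chromosome 1 read by an _x_at set, stood at 0.57 from the control mean under siRNA-2 and -0.37 under siRNA-1. That set may also bind transcripts of the member metallothioneins. It may therefore repeat their signal, here and where MT1HL1 is counted among the list genes.

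Set directly against siRNA-1, siRNA-2 had 5 list genes of 62 past the limma threshold on the higher side (MT1HL1, SLC39A5, SLC40A1, SGK1 and TSC22D3) and 2 on the lower (SLC39A10 and FKBP5), against 3.97% and 2.84% of all genes. This sets 1 array against 1 with the spread of the controls, which may be technical, and with all named probe sets 0 calls remained (smallest limma adjusted p = 0.054, 12550 probe sets at an unadjusted p under 0.05), so no difference between the siRNAs is read from it. The genes nearest to SLC30A10 in their values on the 4 arrays, by Euclidean distance in log2 units, were TNNC2 (0.32), DIO1 (0.33), CSTA (0.40), SMTNL2 (0.42) and BHMT (0.44). Nearest to the mean of the metallothionein sets, which read -0.25 under siRNA-1 and 1.39 under siRNA-2, against -0.04 and 0.03 on the controls, were SH3BP4 (0.06), YPEL1 (0.12), ATP9A (0.12), LINC00342 (0.13) and DENND1B (0.14). With 4 arrays, many genes can share such a pattern.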

How the data were processed

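The deposited values are log2 values that the authors obtained by RMA, per the submitters' processing notes, and base 2 is assumed because RMA gives it. The values show that they were then centred, since the median of the 4 arrays is 0 in every probe set (largest deviation 5.0e-07). Arrays give no depth, and their number limits the precision.

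Probe sets were named from the platform annotation (41097 with 1 symbol, 1801 with several, 11777 unnamed here), updated by gene identifier. The 62 Affymetrix control sets were left out of gene tests. For tests each of 19775 genes had 1 probe set, chosen by brightness class from the numeric step of the values (8 or above, 4 to 8, below 4), then suffix, then identifier. Tests used limma 3.58.1 in R 4.3.3, two-sided, with Benjamini-Hochberg adjustment over all genes and a threshold of 0.05, on 2 groups or, for each siRNA apart, on 3 groups whose spread comes from the control arrays. The fits were run on simulated arrays that all had the spread of the controls, with the same change on both knockdown arrays. The siRNA-2 array here had a wider SD, so the simulation does not bear on the single-siRNA tests. Alternatives were the mean of a gene's probe sets, all named sets, no _x_at or _s_at sets, 2 other array centrings, no dim genes, robust moderation, a replicate block and leaving out each array.

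All members are named, and from each list at most 2 genes with the largest difference among those beyond both controls on both knockdown arrays, plus any that passed a test. Members and lists were chosen with earlier results of these data known. The RefSeq table (GRCh38.p14) gave names and gene order. Of the 72 listed genes 10 were not analysed here.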

Additional observations from a re-analysis of the deposited data

Results flagged for a closer look

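Hybridization spike-ins, which no gene comparison uses, differed between the groups: their mean was 0.61 under siRNA-1 and 0.65 under siRNA-2, against -0.69 and -0.61 on the controls, a difference of 1.28 or 2.44-fold over 18 probe sets. The poly-A spike-ins, which go into the RNA ahead of labelling, gave 0.13 and 0.03 on the knockdown arrays, against -0.33 and -0.04 on the controls. The part of these differences in the gene values was not tested.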

How the results depend on the processing

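The array left out decided the metallothionein result: the median difference of 0.41 ranged from -0.21 (without the siRNA-2 array) to 1.01 (without siRNA-1) when 1 array was left out, and was 1.73 without _x_at and _s_at probe sets. The count of member sets beyond the controls was 2 higher, with a range of 2 to 14, and 1 lower, with a range of 1 to 12, the extremes coming without siRNA-1 (14) and without siRNA-2 (12). Centring arrays on their median or on maintenance probe sets moved knockdown against control by at most 0.04 and changed the sign of no member difference except that of 205323_s_at of MTF1, which went to 0.01 against -0.02, both near 0.

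Counts of genes past the limma threshold moved widely, and the cause was not tested. Knockdown against control had 1 call, 0 with the mean of probe sets, all named probe sets, no dim genes, robust moderation or the replicate block, 5 with maintenance centring, and 0 to 4602 when 1 array was left out (4602 without siRNA-1). The correlation of same-numbered arrays' deviations was 0.04, so samples share only a number, and the block was not read further. For siRNA-1 the 0 calls became 112 with the mean of probe sets, 804 with median centring and 831 with maintenance centring. For siRNA-2 the 4602 became 7953 over all named probe sets. Between the siRNAs 1346 became 2108 (mean of probe sets), 612 (without _x_at and _s_at), 0 (all named probe sets, smallest adjusted p = 0.054), 3256 and 3217 (median and maintenance centring) and 2953 (without dim genes). TSC22D3 turned to -0.07 under siRNA-2 without _x_at and _s_at sets. Leaving out a control from the test of a single siRNA leaves no residual degrees of freedom, so that was not run.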
